A study of Mus musculus with 12 samples.

Results

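The genes described here encode scaffolds, kinases, adhesion molecules and small-GTPase regulators of excitatory and inhibitory postsynapses. They were chosen by name, with neurotransmitter receptors left out, as a list of 37 gene symbols, and 37 of the 55471 genes in the deposited count table carried one of these names. RNA-seq had been carried out on primary hippocampal neurons, that is, cells dissected from the hippocampi of wild-type CD1 mouse embryos of mixed-sex litters and grown in culture. The cultures received gapmers, antisense oligonucleotides that direct RNase H to a chosen transcript, in lipid nanoparticles at day in vitro 7, and RNA was collected at day in vitro 10. The control group (6 libraries) received a gapmer with no known target, and the *Neuid* KD group (6 libraries) received a gapmer against the long non-coding RNA *Neuid*. Both groups shared the genotype, the medium, the nanoparticle carrier and the collection time, and the knockdown rested on 1 targeting gapmer sequence. The labels number the libraries within each group but do not say which came from separate litters or cultures, so p-values measure the spread between these libraries, which may in part be technical.

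At an excitatory synapse, presynaptic neurexins and netrin-G proteins bind neuroligins, LRRTM proteins and netrin-G ligands on the dendritic spine. Beneath the membrane, membrane-associated guanylate kinases (MAGUKs, the Dlg genes) bind receptors and adhesion molecules, SAPAP proteins (the Dlgap genes) tie MAGUKs to Shank proteins, and Homer proteins link Shank to metabotropic glutamate receptors. Calcium entering the spine activates calmodulin and the kinase CaMKII, and regulators of small GTPases shape the actin of the spine, while inhibitory synapses use gephyrin as their scaffold.

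*Neuid* (*Gm10419*), the targeted transcript, lay between 26.0 and 31.0 CPM (the reads of a gene scaled to the size of its library) in the control libraries and between 6.32 and 9.55 CPM in the *Neuid* KD libraries (log2 fold change -1.81, adjusted p = 1.3e-10, edgeR quasi-likelihood test), with no overlap. Library depth, taken here as the reads counted on genes, was 18002585 to 30914714 in control and 11152556 to 30573480 in *Neuid* KD. The lowest was *Neuid* KD 1. Summed reads on 1780 chemosensory receptor genes, which are used mainly in sensory epithelia, gave a background of at least 100 CPM in 7 libraries (4 control and 3 *Neuid* KD) and under 100 CPM in the other 5. Control 1 (653 CPM) and *Neuid* KD 1 (604 CPM) had the highest background, and these 2 libraries also had the lowest level of their group for 27 and for 31 of the 37 genes. Pan-neuronal markers summed to 11394 to 13348 CPM in control and to 11281 to 13242 CPM in *Neuid* KD, with 2 of 23 higher and 1 lower. Astrocyte markers were higher in *Neuid* KD for 13 of the 14 tested (1835 to 2297 CPM summed in control, 3351 to 4046 CPM in *Neuid* KD), and oligodendrocyte precursor markers for 4 of 9 (153 to 181 CPM, then 439 to 530 CPM). Excitatory neuron markers summed to 1298 to 1492 in control and 1364 to 1524 CPM in *Neuid* KD (2 of 11 lower), and inhibitory ones to 344 to 400.2 CPM and 285 to 348 CPM, with negative values for 11 of 12. The summed levels of oligodendrocyte markers (26.3 to 33.8, then 23.1 to 34.3 CPM), microglia markers (14.6 to 20.1, then 12.7 to 19.7 CPM), endothelial markers (6.89 to 23.5, then 7.07 to 23.3 CPM) and fibroblast and mural markers (40.2 to 72.0, then 37.7 to 60.9 CPM) overlapped between control and *Neuid* KD, with negative values for 3 of 4 (1 of them past the threshold), 4 of 4, 6 of 6 and 7 of 9 genes tested. In bulk RNA a shift in the share of a cell type and a shift in RNA per cell cannot be told apart, and the part of the glial markers in the results below was not tested.

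Most of the postsynaptic genes lay close to their control level in *Neuid* KD, and a few were higher. The kinase subunit gene *Camk2a*, the MAGUK gene *Dlg2*, the neuroligin gene *Nlgn1*, the netrin-G ligand gene *Lrrc4c* and the sorting receptor gene *Sorcs3* were higher in *Neuid* KD, and the calmodulin-binding adaptor gene *Nrgn* was lower, all at an adjusted p under 0.05 across the 19578 genes tested. All 37 genes passed the filter on low counts, and the fewest reads of any of them in a library was 56. Of these, 5 (13.5%) were higher and 1 (2.70%) was lower, against 6.31% and 2.42% of all genes tested (8.72% in either direction). Among the 10208 tested genes whose mean level lay in the same range, from 5.92 to 803 CPM, 11.1% were higher and 3.63% lower, so the share of higher genes was near that of genes of like abundance. The median log2 fold change was 0.04 over the 37 genes, with a range from -0.20 to 0.38, and -0.03 over all genes tested. Of the 31 genes that did not pass, 17 had a positive and 14 a negative value, and 22 of the 37 genes lay within 0.1 of zero on the log2 scale. For 26 of these 31 genes the 95% interval of the log2 fold change lay inside -0.3 to 0.3, and for 15 it lay inside -0.2 to 0.2. Over all 31 the bounds ran from -0.34 to 0.35. Besides the 6 genes named above, *Baiap2*, *Lrrtm2*, *Homer3*, *Akap5* and *Camk2g* had an unadjusted p under 0.05 (edgeR). The share of all genes tested that lay under this looser threshold was not counted, so no excess can be read from it.

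**Figure D1:**
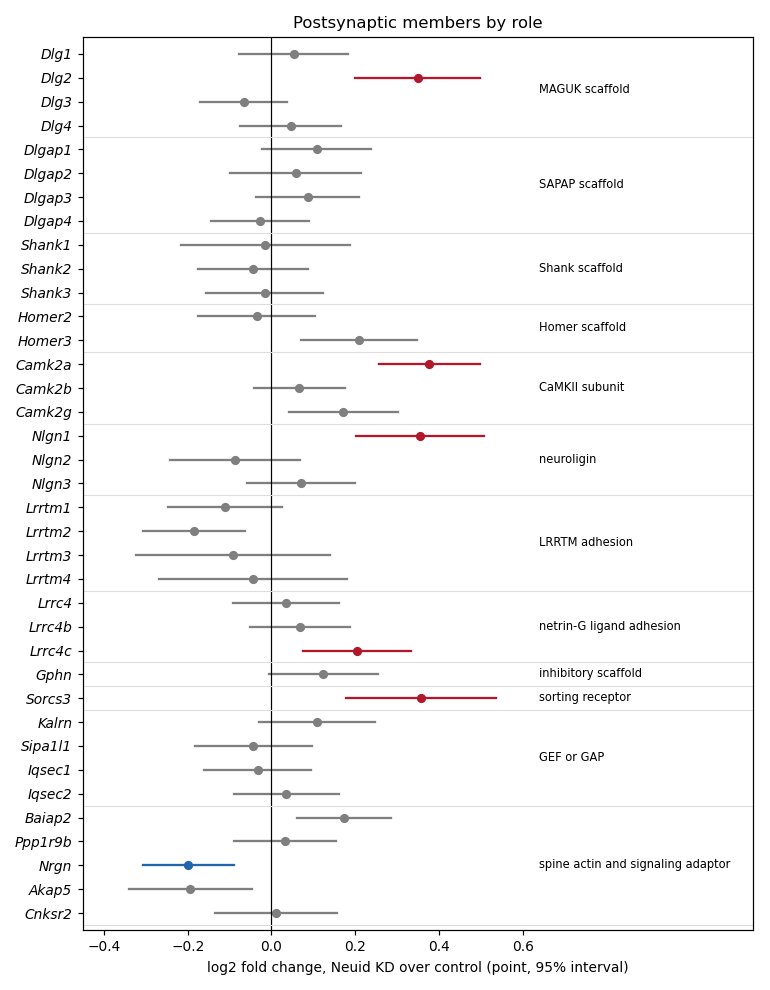
Log2 fold change of each of the 37 genes, *Neuid* KD over control, grouped by role, as a point with its 95% interval from edgeR. Red points (*Camk2a*, *Dlg2*, *Nlgn1*, *Sorcs3* and *Lrrc4c*) are higher and the blue point (*Nrgn*) lower at an adjusted p under 0.05, and the 31 gray genes lie between -0.19 and 0.21.

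The start regions of the genes that rose and of related genes that did not are shown so that their letters can be compared. RefSeq start windows (GRCm38.p6) were at hand for 30 of the 37 genes, in 46 windows, and not for *Dlgap2*, *Shank1*, *Shank2*, *Camk2a*, *Camk2g*, *Nlgn3* and *Lrrtm2*. In the 250 bases before each start, the GC box GGGCGG, searched on both strands, was found in 20 of the 46 windows (17 genes) and in 32.7% of all 32851 windows. The 7 windows of *Dlg2*, *Nlgn1*, *Lrrc4c* and *Sorcs3* held none and had 1 to 9 CpG dinucleotides (median 4). Of the 39 windows of the other 26 genes 19 held none either, and these 39 had 0 to 44 CpG dinucleotides (median 11), and all windows had a median of 6. This is a description of letters in the windows, chosen after the values were seen and given with no test. Of each gene shown, the printed window is its first in the table that shares no base with an annotated exon, written 5′ to 3′ on the strand of the gene, with GC boxes of either strand in capitals.

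The windows of 4 genes that rose hold no GC box. The windows of *Lrrc4c* and *Sorcs3* end just before the first annotated base of the gene, and those of *Dlg2* and *Nlgn1* lie before a start inside the gene.
Dlg2, chr7:92062144-92062393, plus strand: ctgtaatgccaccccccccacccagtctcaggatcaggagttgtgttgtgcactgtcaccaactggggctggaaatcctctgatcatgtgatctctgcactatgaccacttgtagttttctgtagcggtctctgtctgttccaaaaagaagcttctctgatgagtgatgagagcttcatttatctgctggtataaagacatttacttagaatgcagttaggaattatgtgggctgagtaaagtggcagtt
Nlgn1, chr3:26153987-26154236, minus strand: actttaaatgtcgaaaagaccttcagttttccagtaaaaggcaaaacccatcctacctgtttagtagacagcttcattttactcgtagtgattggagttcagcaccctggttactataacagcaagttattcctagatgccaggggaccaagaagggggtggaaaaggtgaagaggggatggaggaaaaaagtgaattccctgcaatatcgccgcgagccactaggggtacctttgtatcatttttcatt
Lrrc4c, chr2:96317919-96318168, plus strand: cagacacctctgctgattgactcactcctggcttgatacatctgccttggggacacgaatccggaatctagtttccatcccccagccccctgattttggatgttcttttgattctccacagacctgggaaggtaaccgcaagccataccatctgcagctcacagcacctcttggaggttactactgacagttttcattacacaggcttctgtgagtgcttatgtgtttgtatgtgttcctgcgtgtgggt
Sorcs3, chr19:48205775-48206024, plus strand: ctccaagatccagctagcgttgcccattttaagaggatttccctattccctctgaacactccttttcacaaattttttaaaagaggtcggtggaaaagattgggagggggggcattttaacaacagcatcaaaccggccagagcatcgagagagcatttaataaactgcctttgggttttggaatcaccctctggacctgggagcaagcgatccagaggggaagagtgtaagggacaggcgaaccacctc

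Of the genes of these families and the CaMKII genes in the list that did not pass the test, 5 had a window that shares no exon base, and all 5 are shown. In the printed windows *Nlgn2* and *Camk2b* hold 3 GC boxes each, overlapping ones counted, *Dlg1* holds 1, and *Dlg3* and *Lrrc4* hold none. Another *Dlg3* window that shares no exon base holds 1 GC box and 19 CpG dinucleotides, unlike the windows of the genes that rose. Further *Dlg1* windows that share no exon base hold no GC box and have 4 and 3 CpG dinucleotides, like the windows of the genes that rose. The printed windows of *Dlg3* and *Camk2b* lie before a start inside the gene, and the others end just before the first annotated base. The CpG dinucleotides of the 5 printed windows number 18, 44, 9, 7 and 9, in the order shown.
Nlgn2, chr11:69837785-69838034, minus strand: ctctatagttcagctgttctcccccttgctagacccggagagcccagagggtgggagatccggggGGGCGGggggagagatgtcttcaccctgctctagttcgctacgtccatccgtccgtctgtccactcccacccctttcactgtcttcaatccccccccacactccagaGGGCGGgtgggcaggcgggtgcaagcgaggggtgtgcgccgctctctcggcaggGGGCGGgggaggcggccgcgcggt
Camk2b, chr11:6065749-6065998, minus strand: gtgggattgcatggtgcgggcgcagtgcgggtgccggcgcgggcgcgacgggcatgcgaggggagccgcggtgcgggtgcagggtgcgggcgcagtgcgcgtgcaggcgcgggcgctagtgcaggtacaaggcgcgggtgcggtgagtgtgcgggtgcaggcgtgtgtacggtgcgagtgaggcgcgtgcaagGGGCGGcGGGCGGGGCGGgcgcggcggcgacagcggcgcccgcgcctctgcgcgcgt
Dlg1, chr16:31663193-31663442, plus strand: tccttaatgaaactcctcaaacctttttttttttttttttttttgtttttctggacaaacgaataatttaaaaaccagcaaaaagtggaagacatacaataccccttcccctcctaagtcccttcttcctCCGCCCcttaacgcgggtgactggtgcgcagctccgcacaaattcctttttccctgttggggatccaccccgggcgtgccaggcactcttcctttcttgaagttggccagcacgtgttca
Dlg3, chrX:100774245-100774494, plus strand: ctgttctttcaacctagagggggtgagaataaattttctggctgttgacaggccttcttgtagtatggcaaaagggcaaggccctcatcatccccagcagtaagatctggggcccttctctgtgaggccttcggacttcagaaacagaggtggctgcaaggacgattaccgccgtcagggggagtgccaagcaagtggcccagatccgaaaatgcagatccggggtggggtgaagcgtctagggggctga
Lrrc4, chr6:28831748-28831997, minus strand: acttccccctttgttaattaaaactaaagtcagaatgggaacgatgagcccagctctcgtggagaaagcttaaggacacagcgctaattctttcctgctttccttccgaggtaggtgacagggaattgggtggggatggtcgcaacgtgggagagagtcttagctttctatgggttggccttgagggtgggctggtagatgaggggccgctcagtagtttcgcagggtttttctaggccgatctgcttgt

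Among the CaMKII subunits, which assemble into the kinase holoenzyme that is activated by calcium and calmodulin in spines, *Camk2a* rose and *Camk2b*, *Camk2g* and Camk2d did not pass the test. *Camk2a* (ENSMUSG00000024617, chromosome 18), the alpha subunit, ran from 603 to 755 CPM in control (median 712) and from 824 to 938 CPM in *Neuid* KD (median 925). Every *Neuid* KD library lay above every control library, and the lowest of each group were control 1 and *Neuid* KD 1. The mean rose from 699 ± 58.7 to 907 ± 44.1 CPM (SD, n = 6 each), with a log2 fold change of 0.38 (SE 0.057, adjusted p = 0.000216, edgeR), or 130% of control (the ratio of the means). *Camk2b*, the beta subunit that also binds actin, stood at 663 ± 36.0 in control and 695 ± 43.1 CPM in *Neuid* KD, with a log2 fold change of 0.07 and a 95% interval from -0.04 to 0.18. *Camk2g*, the gamma subunit, stood at 97.9 ± 9.47 and 110.2 ± 4.73 CPM (log2 fold change 0.17, adjusted p = 0.108, edgeR), and it passed as higher in 5 of 29 other settings. Camk2d, the delta subunit, which belongs to the list of further postsynaptic genes described last, had a value of the other sign, at 51.9 ± 2.42 and 45.8 ± 4.29 CPM (log2 fold change -0.17, adjusted p = 0.0938, edgeR).

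The ratio of *Camk2a* to *Camk2b* reads within a library does not depend on library size or scaling, although its size depends on the lengths of the 2 genes. It uses the same reads as the levels above, so it is not separate support for the *Camk2a* call. It was 0.995 to 1.09 in control (median 1.07) and 1.28 to 1.35 in *Neuid* KD (median 1.30), with no overlap. Its mean changed from 1.05 ± 0.035 to 1.31 ± 0.028 (SD, n = 6 each), a log2 difference of 0.31 (two-sided exact permutation test over 924 arrangements, p = 0.0022, the smallest this design can give, adjusted p = 0.0032 over 3 ratios). Both highest-background libraries, control 1 (0.995) and *Neuid* KD 1 (1.32), lay inside or at the edge of their own group and apart from the other. Within the 7 libraries of at least 100 CPM background the log2 difference was 0.35 and within the 5 others 0.26, where 2 against 3 libraries cannot give an exact permutation p below 0.1.

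**Figure D2:**
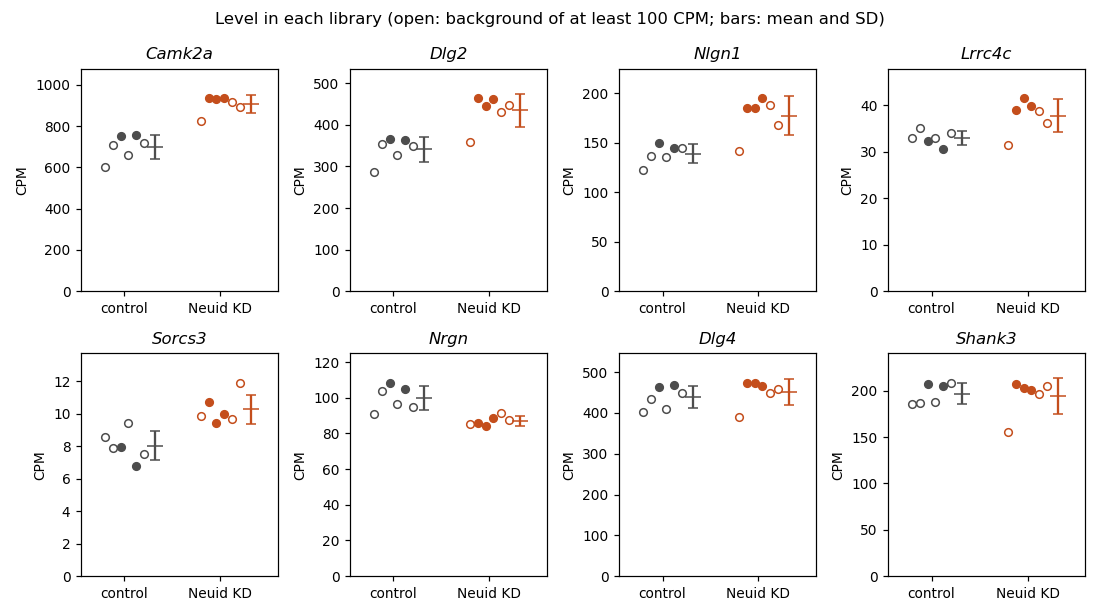
Level in each library, in CPM with the axis from 0, of the 6 genes past the threshold and of *Dlg4* and *Shank3*, which were not. Open points are libraries with a background of at least 100 CPM, and the bar at the right of each group is the mean with its SD. The leftmost *Neuid* KD point, *Neuid* KD 1, is the only one inside the control range for *Dlg2*, *Nlgn1* and *Lrrc4c*.

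Of the 4 MAGUK scaffolds, which hold receptors and adhesion molecules at the postsynaptic membrane, *Dlg2* rose and *Dlg1*, *Dlg3* and *Dlg4* did not pass the test. *Dlg2* (ENSMUSG00000052572, chromosome 7, 90476672 to 92449247, plus strand, GRCm38) ran from 286 to 365 CPM in control (median 352) and from 359 to 465 CPM in *Neuid* KD (median 447). The groups overlapped only through *Neuid* KD 1, which lay below the highest control libraries, and the other 5 lay above all controls. Its mean rose from 342 ± 30.2 to 435 ± 39.5 CPM (SD, n = 6 each), with a log2 fold change of 0.35 (SE 0.070, adjusted p = 0.0032, edgeR). Of the 37 genes, 2 share exon bases with another gene on the same strand and 11 on the opposite strand. Exons of *Dlg2* share 225 bases on the same strand with *Gm45159* (67.4 ± 8.98 CPM in control, 59.5 ± 14.4 CPM in *Neuid* KD) and *Gm45131*, which is under 1 CPM in each library, so some reads could have been counted for either gene.

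*Dlg4*, the major MAGUK of the postsynaptic density, ran from 403 to 469 CPM in control (median 441) and from 389 to 475 CPM in *Neuid* KD (median 463). The groups overlapped throughout, and the log2 fold change of 0.05 had a 95% interval from -0.07 to 0.17 (adjusted p = 0.787, edgeR). *Dlg3*, which is prominent at young synapses, stood at 160.3 ± 5.09 and 153 ± 9.70 CPM, and *Dlg1*, which also acts in receptor trafficking, at 43.9 ± 3.42 and 45.4 ± 3.43 CPM. In *Dlg1* and *Dlg4* the sign of these small values turned under several other settings.

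The scaffolds that lie deeper in the density did not pass the test in any of their 9 genes, namely the 4 SAPAP, 3 Shank and 2 Homer genes. The SAPAP genes lay between -0.03 (*Dlgap4*) and 0.11 (*Dlgap1*) on the log2 fold change scale, and their levels in control ran from 61.1 ± 5.55 CPM (*Dlgap2*) to 237 ± 17.1 CPM (*Dlgap1*), with *Dlgap3* at 141 ± 8.45 CPM (log2 fold change 0.09). The Shank genes, which encode the master scaffolds that bind both SAPAP and Homer proteins, lay between -0.04 (*Shank2*) and -0.01 (*Shank1*), and *Shank1* and *Shank3* turned positive when some single libraries were left out. *Shank1* ran from 425 to 493 CPM in control (median 459) and from 301 to 496 CPM in *Neuid* KD (median 485), and its SD in *Neuid* KD was 76.2 CPM against 23.5 CPM in control. Without *Neuid* KD 1, the library at 301 CPM, the log2 fold change was 0.04. *Shank3* stood at 197 ± 11.3 and 194 ± 19.5 CPM (log2 fold change -0.02, 95% interval -0.16 to 0.12) and *Shank2* at 178 ± 8.19 and 173 ± 16.6 CPM. *Homer3* stood at 19.6 ± 1.80 and 22.7 ± 1.38 CPM (log2 fold change 0.21, adjusted p = 0.0612, edgeR), and *Homer2* at 68.3 ± 6.06 and 66.6 ± 5.38 CPM (log2 fold change -0.04). *Homer3* passed with DESeq2 and under several other settings given at the end.

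Among the neuroligins, postsynaptic partners of neurexins, *Nlgn1* of excitatory synapses rose, and *Nlgn2* of inhibitory synapses and *Nlgn3* of both kinds did not pass the test. *Nlgn1* (ENSMUSG00000063887, chromosome 3, 25426215 to 26332460, minus strand) ran from 122 to 149 CPM in control (median 141) and from 142 to 196 CPM in *Neuid* KD (median 185). *Neuid* KD 1 was the only *Neuid* KD library within the control range. The mean changed from 139 ± 9.75 to 177 ± 19.6 CPM (SD, n = 6 each), with a log2 fold change of 0.35 (SE 0.072, adjusted p = 0.0034, edgeR). *A830092H15Rik* overlaps 1229 bases of *Nlgn1* exons on the opposite strand, and it was at 5.21 ± 0.44 in control and 5.31 ± 0.76 CPM in *Neuid* KD. *Nlgn2* ran from 219 to 264 CPM in control (median 239) and from 176 to 248 CPM in *Neuid* KD (median 233), with a log2 fold change of -0.09 and a 95% interval from -0.24 to 0.07. *Nlgn3*, on the X chromosome, stood at 95.7 ± 6.20 and 100.5 ± 8.34 CPM (log2 fold change 0.07), and *Gm21986*, which shares 3823 bases of its exons on the same strand, was under 1 CPM in each library.

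The ratio of *Nlgn1* to *Nlgn2* reads was 0.549 to 0.592 in control (median 0.587) and 0.717 to 0.839 in *Neuid* KD (median 0.794), so the groups did not overlap. It changed from 0.577 ± 0.018 to 0.785 ± 0.047 (SD, n = 6 each), a log2 difference of 0.44 (two-sided exact permutation test, p = 0.0022, adjusted p = 0.0032 over 3 ratios). This ratio too uses the same reads as the levels above and is not separate support for the *Nlgn1* call. The log2 difference was 0.42 within the 7 libraries of higher background and 0.47 within the 5 others. In contrast to its level in CPM, *Neuid* KD 1 (0.808) lay in the middle of its group in this ratio. As a measure of excitatory against inhibitory scaffold reads, the ratio of *Dlg4* to *Gphn* was 4.51 to 4.83 in control and 4.02 to 5.01 in *Neuid* KD, which overlapped, with a log2 difference of -0.08 (two-sided exact permutation test, p = 0.1797). Without *Neuid* KD 6, the library with the highest value of this ratio, the difference was -0.11 and the exact permutation p was 0.0195. Leaving out any other library gave an exact permutation p of 0.156 to 0.353, so only this fit was under 0.05. *Gphn*, the gephyrin gene that anchors inhibitory receptors, itself stood at 93.5 ± 6.59 and 101.8 ± 8.36 CPM (log2 fold change 0.12, 95% interval -0.01 to 0.25).

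**Figure D3:**
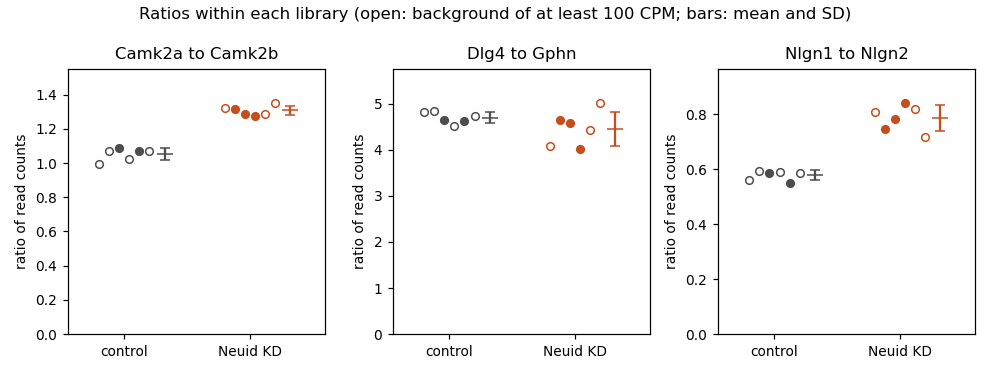
Ratio of the read counts of 2 genes in each library, with the axis from 0, for *Camk2a* to *Camk2b*, *Dlg4* to *Gphn* and *Nlgn1* to *Nlgn2*. Open points are libraries with a background of at least 100 CPM, and bars give the mean and SD of 6 libraries. The *Camk2a* to *Camk2b* and *Nlgn1* to *Nlgn2* ratios of *Neuid* KD all lie above those of control, and the *Dlg4* to *Gphn* ratios overlap.

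Netrin-G ligands are leucine-rich repeat proteins that bind netrin-G proteins or receptor tyrosine phosphatases on the axon. *Lrrc4c* (ENSMUSG00000050587, chromosome 2, 96318169 to 97631666, plus strand), a netrin-G ligand, ran from 30.5 to 35.1 CPM in control (median 32.9) and from 31.4 to 41.6 CPM in *Neuid* KD (median 38.8). Once more only *Neuid* KD 1 lay within the control range. Its mean rose from 32.9 ± 1.55 to 37.8 ± 3.60 CPM, with a log2 fold change of 0.21 (SE 0.061, adjusted p = 0.0452, edgeR), and this call was the least stable of the 6. It was lost when any library other than *Neuid* KD 1 was left out (11 of 12 such fits, adjusted p 0.0142 to 0.204 over the 12), and the estimate was 0.09 in the higher-background class of libraries and 0.32 in the lower. *Lrrc4* and *Lrrc4b* had log2 fold changes of 0.03 and 0.07, from 46.3 ± 3.45 and 206 ± 14.4 CPM in control.

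The 4 LRRTM genes, whose products bind neurexins and help to hold AMPA receptors at the synapse, all had negative values and none passed the test, and *Lrrtm3* and *Lrrtm4* turned positive within the higher-background libraries. *Lrrtm2* ran from 33.7 to 40.7 CPM in control (median 35.6) and from 28.6 to 34.1 CPM in *Neuid* KD (median 32.5), overlapping at their edges, with a log2 fold change of -0.19 (adjusted p = 0.0565, edgeR). Under several other settings, given at the end, *Lrrtm2* passed the test as lower. *Lrrtm1* stood at 53.3 ± 4.50 and 49.2 ± 3.90 CPM (log2 fold change -0.11), *Lrrtm3* at 6.12 ± 0.54 and 5.73 ± 0.90 CPM (-0.09) and *Lrrtm4* at 15.4 ± 0.95 and 14.8 ± 3.04 CPM (-0.04). *Lrrtm3* and *Lrrtm4* had the widest 95% intervals of the 37 genes, -0.32 to 0.14 and -0.27 to 0.18, and differences inside these intervals were not excluded by these libraries.

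*Sorcs3* encodes a sorting receptor of the VPS10 family that is found in the postsynaptic density. *Sorcs3* (ENSMUSG00000063434, chromosome 19, 48206025 to 48805505, plus strand) was a low gene, at 6.80 to 9.42 CPM in control (median 7.94) and 9.45 to 11.9 CPM in *Neuid* KD (median 9.93), and the groups did not overlap, by a narrow margin. The mean changed from 8.03 ± 0.90 to 10.3 ± 0.92 CPM, with a log2 fold change of 0.36 (SE 0.085, adjusted p = 0.0114, edgeR). Without *Neuid* KD 6, its highest library, the log2 fold change was 0.28 and the call was lost (adjusted p = 0.0677, edgeR, and 0.0022 to 0.217 over all alternatives), and it held without each other library.

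Of the 3 genes with no overlap between the libraries of the 2 groups, all were higher in *Neuid* KD (*Camk2a*, *Sorcs3* and *Baiap2*), where 4.13% of all genes tested were higher in this way and 1.57% lower (5.7% in either direction). *Baiap2* encodes an adaptor that joins Rac and Cdc42 signals to spine actin and binds MAGUK and Shank proteins. It ran from 58.0 to 73.5 CPM in control (median 66.9) and from 74.4 to 78.1 CPM in *Neuid* KD (median 75.2), and its log2 fold change of 0.17 missed the threshold (adjusted p = 0.0554, edgeR), although it passed as higher in 9 of 29 other settings, DESeq2 and limma-voom among them. The spread of *Baiap2* was 5.44 CPM (SD) in control and 1.47 CPM in *Neuid* KD.

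*Nrgn* (ENSMUSG00000053310, chromosome 9, 37544492 to 37552904, minus strand) encodes neurogranin, which binds calmodulin when calcium is low. It ran from 90.7 to 108.6 CPM in control (median 100.1) and from 84.0 to 91.7 CPM in *Neuid* KD (median 86.6), and the only overlap was between control 1 and *Neuid* KD 5. Its mean fell from 99.9 ± 6.91 to 87.1 ± 2.74 CPM, with a log2 fold change of -0.20 (SE 0.051, adjusted p = 0.0192, edgeR). The call was lost without control 2, control 3, control 5, *Neuid* KD 2, *Neuid* KD 3 or *Neuid* KD 4 (log2 fold changes -0.25 to -0.17 and adjusted p 0.0043 to 0.103 over all 12 fits that leave out a library). *Nrgn* differed by -0.12 within the libraries of at least 100 CPM background and by -0.34 within the others. The other 2 negative values of this size among adaptors and adhesion genes were those of *Akap5* and *Lrrtm2*. *Akap5*, an anchor for protein kinase A and calcineurin, ran from 66.2 to 87.5 CPM in control (median 75.2) and from 56.4 to 73.5 CPM in *Neuid* KD (median 67.5), with a log2 fold change of -0.19 (adjusted p = 0.106, edgeR). It passed the test as lower with DESeq2 and in the libraries under 100 CPM background, where its log2 fold change was -0.31. *Ppp1r9b*, which encodes spinophilin, an actin-binding partner of protein phosphatase, stood at 461 ± 27.6 and 472 ± 35.4 CPM, and *Cnksr2*, a scaffold of Ras signaling, at 128 ± 6.42 and 128 ± 14.2 CPM.

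The exchange factors and GTPase-activating proteins did not pass the test in any of 4 genes, neither at an unadjusted p under 0.05 nor with DESeq2, and their log2 fold changes lay between -0.04 and 0.11. *Kalrn*, the exchange factor kalirin that enlarges spines, ran from 406 to 470.0 CPM in control (median 444) and from 378 to 502 CPM in *Neuid* KD (median 491), with a log2 fold change of 0.11 and a 95% interval from -0.03 to 0.25. *Kalrn* passed the test as higher without *Neuid* KD 1, its lowest library. *Sipa1l1*, a Rap GTPase-activating protein, ran from 252 to 301 CPM in control and from 217 to 280.0 CPM in *Neuid* KD (-0.04), and the Arf exchange factors *Iqsec1* and *Iqsec2* at 161 ± 9.12 and 157 ± 13.3 CPM (-0.03) and at 104 ± 7.14 and 107 ± 7.92 CPM (0.04).

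Per kilobase of exon, the highest of the 37 genes in control was *Camk2a* at 93.6 ± 7.86 RPKM (CPM per kilobase of exon, SD, n = 6), followed by *Ppp1r9b* at 90.8 ± 5.44 RPKM, which did not differ beyond this spread. *Camk2b* (72.7 ± 3.95), *Lrrc4b* (70.3 ± 4.92) and *Nrgn* (68.8 ± 4.75 RPKM) came next and lay within each other's spread. In *Neuid* KD the levels were 122 ± 5.91 RPKM for *Camk2a* and 92.8 ± 6.97 RPKM for *Ppp1r9b*, so the 2 leading genes were apart there, and *Nrgn* stood at 59.97 ± 1.89 RPKM, below *Lrrc4b* at 73.6 ± 4.47 RPKM. The excitatory scaffold *Dlg4* (33.1 ± 2.05 RPKM in control) exceeded the MAGUK genes *Dlg3* (27.4 ± 0.87), *Dlg2* (20.98 ± 1.85) and *Dlg1* (4.09 ± 0.32 RPKM). Among neuroligins *Nlgn2* led with 41.6 ± 2.97 RPKM, and *Nlgn1* and *Nlgn3* were alike in control at 10.3 ± 0.73 and 10.3 ± 0.67 RPKM, then at 13.2 ± 1.46 and 10.8 ± 0.90 RPKM in *Neuid* KD. The lowest levels belonged to *Lrrtm4*, *Lrrtm3* (1.44 ± 0.13) and *Sorcs3* (1.13 ± 0.13 RPKM in control). RPKM divides by the merged exons of all annotated isoforms, and a gene that uses short isoforms appears lower than it is.

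Of the 5 genes that rose, 4 were long genes, a property that was not used to choose them and was looked at after the values were seen. *Dlg2* (1973 kb from first to last annotated base), *Lrrc4c* (1313 kb), *Nlgn1* (906 kb) and *Sorcs3* (599 kb) were 4 of the 8 genes over 500 kb, and *Dlgap1*, *Dlgap2*, *Lrrtm4* and *Kalrn* were the others. None of the 6 genes of 200 to 500 kb, 1 of the 13 of 50 to 200 kb (*Camk2a*) and none of the 10 up to 50 kb were higher, and *Nrgn* (8.41 kb) was in the last group. Across the 37 genes, the Spearman correlation between length and log2 fold change was 0.42, and that between exon GC content and log2 fold change -0.02, as descriptions over genes measured in the same libraries. Genes in general were then counted in the same way: of 9937 protein-coding genes in the same range of mean level, 8.88% of the 6517 up to 50 kb, 12.6% of the 2667 of 50 to 200 kb, 23.0% of the 578 of 200 to 500 kb and 40.6% of the 175 over 500 kb were higher in *Neuid* KD. The shares that were lower were 3.01%, 4.69%, 5.02% and 4.00%. Over these 9937 genes the same correlation was 0.07, and the median log2 fold change was 0.03 up to 50 kb and 0.16 over 500 kb. Under the 6 other settings looked at the share of genes over 500 kb that were higher lay between 26.9% and 49.1%, against 4.45% to 12.4% for those up to 50 kb. The share of 4 of 8 among the long postsynaptic genes was therefore near that of all long genes at this level, and with 8 genes the 2 shares cannot be told apart.

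**Figure D4:**
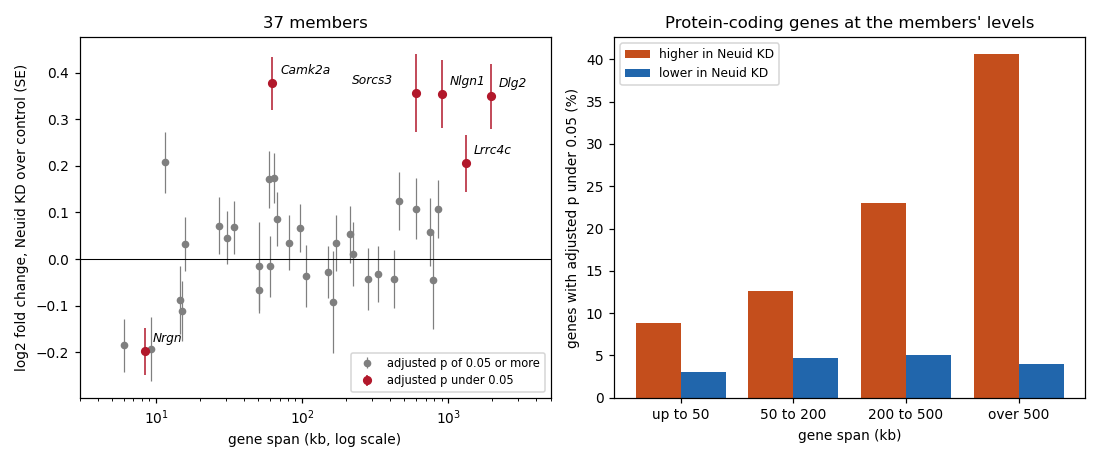
Left, log2 fold change with its SE against gene span in kb on a log axis for the 37 genes, with the 6 past the threshold in red and named. Right, percent of protein-coding genes in the same range of mean level that were higher or lower in *Neuid* KD, by gene span: the bars for higher genes go from 8.88% up to 50 kb to 40.6% over 500 kb.

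A list of 60 further postsynaptic genes, such as other scaffolds, phosphatases and GTPase regulators, was described in the same way. Of the 59 tested (*Cnksr1* was too low), 5 were higher and 1 was lower, shares near the 6.31% and 2.42% of all genes tested, and the median log2 fold change was -0.01. *Sorcs1*, a paralog of *Sorcs3*, ran from 4.26 to 6.82 CPM in control and from 16.3 to 22.6 CPM in *Neuid* KD, a log2 fold change of 1.68 (SE 0.10, adjusted p = 3.8e-09, edgeR), against 0.36 for *Sorcs3* and 0.38 at most among the 37 genes. The others that rose were *Farp1*, an exchange factor for Rac (99.9 ± 7.68 to 123 ± 13.8 CPM, log2 fold change 0.30), *Sipa1l2*, a paralog of *Sipa1l1* (41.9 ± 3.03 to 51.2 ± 3.03 CPM, 0.29), *Ppp3ca*, a catalytic subunit of calcineurin (456 ± 48.4 to 542 ± 31.5 CPM, 0.25), and the scaffold *Tanc1* (42.1 ± 2.89 to 49.8 ± 2.24 CPM, 0.24). *Rasgrf2*, a calcium-regulated exchange factor for Ras, fell from 61.9 ± 3.87 to 49.4 ± 5.61 CPM (log2 fold change -0.32, adjusted p = 0.0058, edgeR), and its groups did not overlap.

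The 6 calls were set against the 2 background classes of libraries. In the 7 libraries of at least 100 CPM background and in the 5 others, the log2 fold changes were 0.40 and 0.28 for *Camk2a*, 0.33 and 0.30 for *Dlg2*, 0.31 and 0.33 for *Nlgn1*, and 0.34 and 0.41 for *Sorcs3*, so each kept its sign in both. At the threshold, *Camk2a* passed in both classes, *Dlg2* and *Nlgn1* passed in the class under 100 CPM alone, and *Sorcs3* in neither, with 4 against 3 and 2 against 3 libraries. In the class under 100 CPM 7 of the 37 genes passed as lower (*Nrgn*, *Akap5*, *Lrrtm1*, *Lrrtm2*, *Nlgn2*, *Homer2* and *Iqsec1*) and 4 as higher, where 4.52% and 6.28% of all genes did, and the only call in the other class was *Camk2a*. In that other class 2.75% of all genes were higher and 0.867% lower. With both highest-background libraries left out, 6 genes were higher (the 5 and *Kalrn*) and 2 lower (*Nrgn* and *Akap5*), where 6.92% and 3.58% of all genes were. Of 29 alternative settings, including those leaving out a library, *Camk2a* passed in 27, *Dlg2* and *Nlgn1* in 26, *Sorcs3* in 22, *Nrgn* in 20 and *Lrrc4c* in 10. Among the genes not called in the fit reported, *Lrrtm2* and *Akap5* each passed as lower in 13, more often than *Lrrc4c* passed. *Camk2a*, *Dlg2* and *Nlgn1* passed in all 12 fits that leave out a library. With no filter on low counts *Sorcs3* alone passed, and with GC and length offsets fitted to all genes none of the 6 did, although the log2 fold changes were 0.38 for *Camk2a*, 0.32 for *Dlg2*, 0.33 for *Nlgn1*, 0.28 for *Lrrc4c*, 0.39 for *Sorcs3* and -0.14 for *Nrgn*.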

How the data were processed

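Total RNA-seq had been performed on 12 libraries from primary mouse hippocampal neurons (6 control, 6 *Neuid* KD) with a stranded SMARTer pico-input kit and single reads. The authors converted base calls with bcl2fastq, aligned reads with STAR to mm10 (GRCm38), counted them per gene with featureCounts and deposited whole-number read counts for 55471 genes, not normalized. The annotation release and strand setting of the counting are not given in the sources used here, so overlapping genes may share reads. The authors' own test was DESeq2 with RUVseq.

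Groups came from the sample titles. Counts were tested with edgeR 4.0.16 in R 4.3.3 (filterByExpr, TMM, quasi-likelihood test, group as the only term), with Benjamini-Hochberg adjustment over 19578 genes and a threshold of 0.05. CPM used TMM-scaled library sizes. Ratios of 2 genes were tested with exact permutation tests written out in Python, and their Benjamini-Hochberg adjustment used scipy 1.17.1. Symbols, positions, spans and exon lengths came from GENCODE M21 (GRCm38), which matched 55230 genes, and start windows from RefSeq. Intervals are 95% intervals of the fit. Alternatives covered size factors, DESeq2 1.42.0, limma-voom (limma 3.58.1), filters, covariates, the replicate number as a block, background classes, depth, GC and length offsets, fold thresholds and leaving out each library.

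The genes and lists, and the marker lists, were chosen with earlier results of these data known. All 37 genes were named, with those of the further postsynaptic list past the threshold. Overlapping genes, start windows, gene spans and the choice of printed windows were added after the values were seen.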

Additional observations from a re-analysis of the deposited data

Results flagged for a closer look

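In each group of 6 libraries the lowest or highest value was compared with the others: a gap to its nearest neighbor that, as a share of the whole range, was above Dixon's 95% critical value stood out in 15 of 82 groups looked at. For 1 group taken alone chance gives this in about 1 in 20 cases. The groups are genes and ratios of the same libraries and are not independent, so the count cannot be set against that rate. In 14 of the 15 the library was *Neuid* KD 1, the shallowest library and the one with the highest background of its group, and each time it was the lowest. Among scaffolds its levels were 359 CPM for *Dlg2* (430 to 465 in the other *Neuid* KD libraries), 389 CPM for *Dlg4*, 215 CPM for *Dlgap1*, 301 CPM for *Shank1* (458 to 496 in the others), 140.4 CPM for *Shank2*, 155 CPM for *Shank3* and 56.4 CPM for *Homer2*. Its level of the neuroligin gene *Nlgn2* was 176 CPM. Among GTPase regulators it had 378 CPM for *Kalrn* (487 to 502 in the others), 217 CPM for *Sipa1l1*, 131 CPM for *Iqsec1* and 92.2 CPM for *Iqsec2*, and among adaptors 402 CPM for *Ppp1r9b* and 99.7 CPM for *Cnksr2*. The other was *Dlg3* in control 1 (150.4 CPM, against 160.0 to 164 in the other control libraries), the control library of highest background. The part of background and depth in these low values was not tested.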

How the results depend on the processing

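The counts of genes higher and lower moved with the processing, and the shares of all genes tested that were called moved too. In the fit reported they were 5 and 1 of the 37 genes (6.31% and 2.42% of all genes) and 5 and 1 of the further list. They became 4 and 2 of the 37 genes (5.48% and 2.86% of all genes) and 5 and 3 of the further list with RLE size factors, 3 and 5 of the 37 genes (5.36% and 6.43% of all genes) and 5 and 13 of the further list with upper-quartile size factors, and 10 and 3 of the 37 genes (8.16% and 3.28% of all genes) and 12 and 6 of the further list with libraries scaled to pan-neuronal markers. DESeq2 gave 7 and 3 of the 37 genes (8.08% and 6.40% of all genes) and 9 and 6 of the further list, limma-voom 6 and 1 of the 37 genes (6.50% and 2.63% of all genes) and 6 and 1 of the further list, no filter on low counts 1 and 0 of the 37 genes (1.47% and 0.473% of all genes) and 2 and 0 of the further list, and a mean of at least 1 CPM 8 and 3 of the 37 genes (9.79% and 5.11% of all genes) and 9 and 7 of the further list. RUVs gave 8 and 3 of the 37 genes (8.97% and 5.05% of all genes) and 9 and 7 of the further list with 1 factor and 8 and 3 of the 37 genes (8.72% and 4.75% of all genes) and 9 and 6 of the further list with 2, and the background as a covariate 8 and 3 of the 37 genes (9.07% and 5.04% of all genes) and 10 and 6 of the further list. The libraries of at least 100 CPM background gave 1 and 0 of the 37 genes (2.75% and 0.867% of all genes) and 1 and 0 of the further list, those under 100 CPM 4 and 7 of the 37 genes (6.28% and 4.52% of all genes) and 6 and 10 of the further list, and thinning to the smallest library 4 and 2 of the 37 genes (7.23% and 4.27% of all genes) and 7 and 7 of the further list. The GC and length offsets gave 0 and 0 of the 37 genes (2.02% and 0.526% of all genes) and 1 and 0 of the further list. Of these changes the cause was not tested. 2 more alternatives were chosen after seeing the data: offsets from genes of at least 10 CPM gave 3 and 6 of the 37 genes (5.70% and 7.16% of all genes) and 6 and 13 of the further list, and leaving out both libraries of highest background 6 and 2 of the 37 genes (6.92% and 3.58% of all genes) and 7 and 5 of the further list. A fold threshold of 0.3 on the log2 scale left 4 and 0 of the 37 genes (4.07% and 1.68% of all genes) and 2 and 1 of the further list, and one of 0.5 0 and 0 of the 37 genes (2.44% and 0.792% of all genes) and 1 and 0 of the further list. Leaving out each library in turn gave 3 to 6 of the 37 genes higher and 0 to 2 lower, and 3 to 7 of the further list higher and 1 to 5 lower. The shares of all genes in these fits ran from 3.93% to 6.11% higher and from 1.70% to 3.94% lower. These fits also gave log2 fold changes of -1.88 to -1.75 for *Neuid*. The log2 differences were 0.30 to 0.32, 0.42 to 0.47 and -0.11 to -0.049 for the *Camk2a* to *Camk2b*, *Nlgn1* to *Nlgn2* and *Dlg4* to *Gphn* ratios. Within the libraries under 100 CPM background the first 2 ratios had log2 differences of 0.26 and 0.47 with an exact permutation p of 0.1, the smallest 2 against 3 libraries can give. With the replicate number as a block the counts were 5 and 2 of the 37 genes (6.63% and 2.77% of all genes) and 6 and 3 of the further list, *Lrrc4c* was lost, and *Baiap2* and *Akap5* passed. Whether the numbers pair the libraries is not known from the labels. The correlation of same-numbered libraries ran from -0.64 to 0.77 over the 6 numbers, and it cannot settle this, since background also differed between libraries. The *Camk2a* to *Camk2b* and *Nlgn1* to *Nlgn2* ratios had a sign-flip exact permutation p of 0.0312 each under this pairing, the smallest 6 pairs can give. Of all called genes 72.3% were higher, but 45.5% with upper-quartile size factors, 44.3% with the added offsets and 59.8% with DESeq2. *Lrrtm2* passed as lower with RLE and upper-quartile size factors, scaling to pan-neuronal markers, DESeq2 and the filter at 1 CPM. It also passed with RUVs, the background covariate, the libraries under 100 CPM and the added offsets, and without *Neuid* KD 1, *Neuid* KD 5 or *Neuid* KD 6. *Akap5* passed as lower in the same settings except RLE and those without a *Neuid* KD library. It also passed with thinned counts, with the block, without control 1 and with both libraries of highest background left out. *Homer3* passed as higher with the pan-neuronal scaling, DESeq2, the filter at 1 CPM, RUVs, the background covariate, thinned counts and without control 3. *Baiap2* passed as higher with the pan-neuronal scaling, DESeq2, limma-voom, the filter at 1 CPM, RUVs, the background covariate, the block and without control 5, and *Camk2g* with the pan-neuronal scaling, the filter at 1 CPM, RUVs and the background covariate. The log2 fold changes of the 6 called genes kept their sign in all 29 alternatives. Genes near zero changed sign, none past the threshold: with upper-quartile size factors *Dlg1* (-0.0067), *Dlg4* (-0.013), *Dlgap2* (-0.00026), *Lrrc4* (-0.025), *Iqsec2* (-0.024), *Ppp1r9b* (-0.027), *Cnksr2* (-0.049); with the libraries under 100 CPM background *Dlg1* (-0.012), *Dlg4* (-0.013), *Dlgap2* (-0.15), *Lrrc4* (-0.028), *Iqsec2* (-0.055), *Ppp1r9b* (-0.031), *Cnksr2* (-0.011); with the added offsets *Dlg1* (-0.029), *Dlg4* (-0.032), *Nlgn3* (-0.0029), *Lrrc4* (-0.028), *Iqsec2* (-0.0016), *Cnksr2* (-0.067); with both libraries of highest background left out *Shank1* (0.038), *Shank3* (0.0039), *Lrrtm4* (0.014); with the libraries of at least 100 CPM background *Homer2* (0.025), *Lrrtm3* (0.0012), *Lrrtm4* (0.029), *Cnksr2* (-0.020); with thinned counts *Lrrc4* (-0.023), *Cnksr2* (-0.035); with RLE size factors *Cnksr2* (-0.0069); with DESeq2 *Cnksr2* (-0.0070); with a mean of at least 1 CPM *Cnksr2* (-0.0017); with RUVs with 1 factor *Cnksr2* (-0.0061); with RUVs with 2 factors *Cnksr2* (-0.0035); with the background covariate *Cnksr2* (-0.0021); with the GC and length offsets *Cnksr2* (-0.00095). Leaving out a library, the sign also turned for *Dlgap2* (-0.015 to 0.10), *Shank1* (-0.074 to 0.038), *Shank3* (-0.062 to 0.0026), *Homer2* (-0.091 to 0.00050), *Lrrc4* (-0.0015 to 0.062), *Iqsec2* (-0.011 to 0.066), *Ppp1r9b* (-0.014 to 0.054), *Cnksr2* (-0.037 to 0.032). The fewest reads were behind *Lrrtm3*, *Sorcs3* and *Lrrtm4*, and intervals cover the spread between these libraries alone.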
